A study of Mus musculus with 4 samples.

Results

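A set of 70 genes of the cell division machinery and its relatives was followed in the cardiac endothelium, the inner cell layer of heart vessels, in mice given lipopolysaccharide (LPS). They were all genes whose array annotation carried a symbol of a cyclin from A to L with a number, a numbered cyclin-dependent kinase (CDK) or CDK-associated protein, a CDK inhibitor, a minichromosome maintenance (MCM) protein from Mcm2 to Mcm9, or a numbered kinesin. The rule found 70 of 11138 measured genes, read by 158 spots, and every one of the 70 symbols matched a RefSeq gene. The study hybridised 4 arrays of long oligonucleotides with amplified RNA, 2 arrays for each time after an intraperitoneal injection. At 4 h and at 24 h, RNA of LPS-injected mice carried Cy5 and RNA of saline-injected mice carried Cy3 on the first array, and the dyes were exchanged on the second. LPS, from the outer membrane of Gram-negative bacteria, is bound by the Toll-like receptor Tlr4. The sources used here give no strain, sex, age or number of mice, no LPS dose and no way of isolating the endothelium, nor whether both times shared their saline RNA.

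Values are log2 LPS over saline, so 1 unit is a 2-fold difference, and they are given first for the array with LPS in Cy5 and then for the array with LPS in Cy3, whose sign was turned. The labels name no separate animals for the exchanged dyes, so the 2 arrays of a time were counted as 1 replicate, no test between LPS and saline was possible, and each ± is the SD of the 2 arrays (n = 2 arrays), a measure of array and dye error that leaves out how animals vary. A gene was called higher or lower where both arrays of a time were at least 2-fold from 0 on the same side. The deposited table does not state which channel is on top. Over all spots the arrays of a time were almost unrelated as deposited (r = -0.0563 at 4 h and -0.0640 at 24 h). Where duplicate spots differed by no more than 0.5 on the log2 scale and both arrays were past 2-fold, the signs were opposite for 180 of 186 oligonucleotides at 4 h and for 435 of 458 at 24 h. On that basis the exchanged dyes were taken as still present in the table, and the ratio was read as Cy5 over Cy3, the usual order. The direction LPS over saline is therefore likely and not certain. Were the table Cy3 over Cy5, every higher value below would be lower, and were its arrays already set alike, 0 members would be called higher at either time.

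Cells enter division when D-type cyclins with Cdk4 or Cdk6, and then E-type cyclins with Cdk2, inactivate the retinoblastoma proteins and free the E2F factors. The MCM complex is loaded on replication origins in G1 and unwinds DNA in S phase, A- and B-type cyclins with Cdk2 and Cdk1 drive S phase and mitosis, and mitotic kinesins build the spindle and complete cytokinesis. Inhibitors of the Cdkn1 (Cip/Kip) and Cdkn2 (INK4) families hold these kinases in check, and Cdkn1a is a direct target of p53. Adult vascular endothelium is largely quiescent. Many CDKs, cyclins and kinesins work outside division, in transcription, splicing or transport along microtubules, and the rule took these in as well.

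Few of these genes differed from saline at either time, and the inhibitor Cdkn1a was the 1 member called at both. At 4 h, 1 of 70 members (1.43%) was called higher, Cdkn1a, and 1 lower, Cdk3, where 2.25% of all genes were called higher and 0.997% lower. At 24 h, 3 members (4.29%) were called higher, Cdkn1a, Kif11 and Cdk11b, and 1 (1.43%) lower, Kif5c, where 3.48% of all genes were called higher and 3.52% lower. No member at 4 h and 2 at 24 h (Cdk20 and Cdkn3) were past 2-fold on both arrays of the time with opposite signs, against 1.42% and 3.69% of all genes. The shares of members called thus lay near those of all genes at both times. Where a short list below held no call, these low shares of all genes stand beside it. The median member stood at -0.10 at 4 h and 0.05 at 24 h, and the median of all genes at -0.02 at both. The same sign on both arrays was seen for 35 of 70 members at 4 h and 34 at 24 h, where 49.9% and 52.3% of all genes had it. Since RNA of a whole isolate was measured, a change in the number of cells of a type and a change in RNA per cell cannot be told apart.

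**Figure D1:**
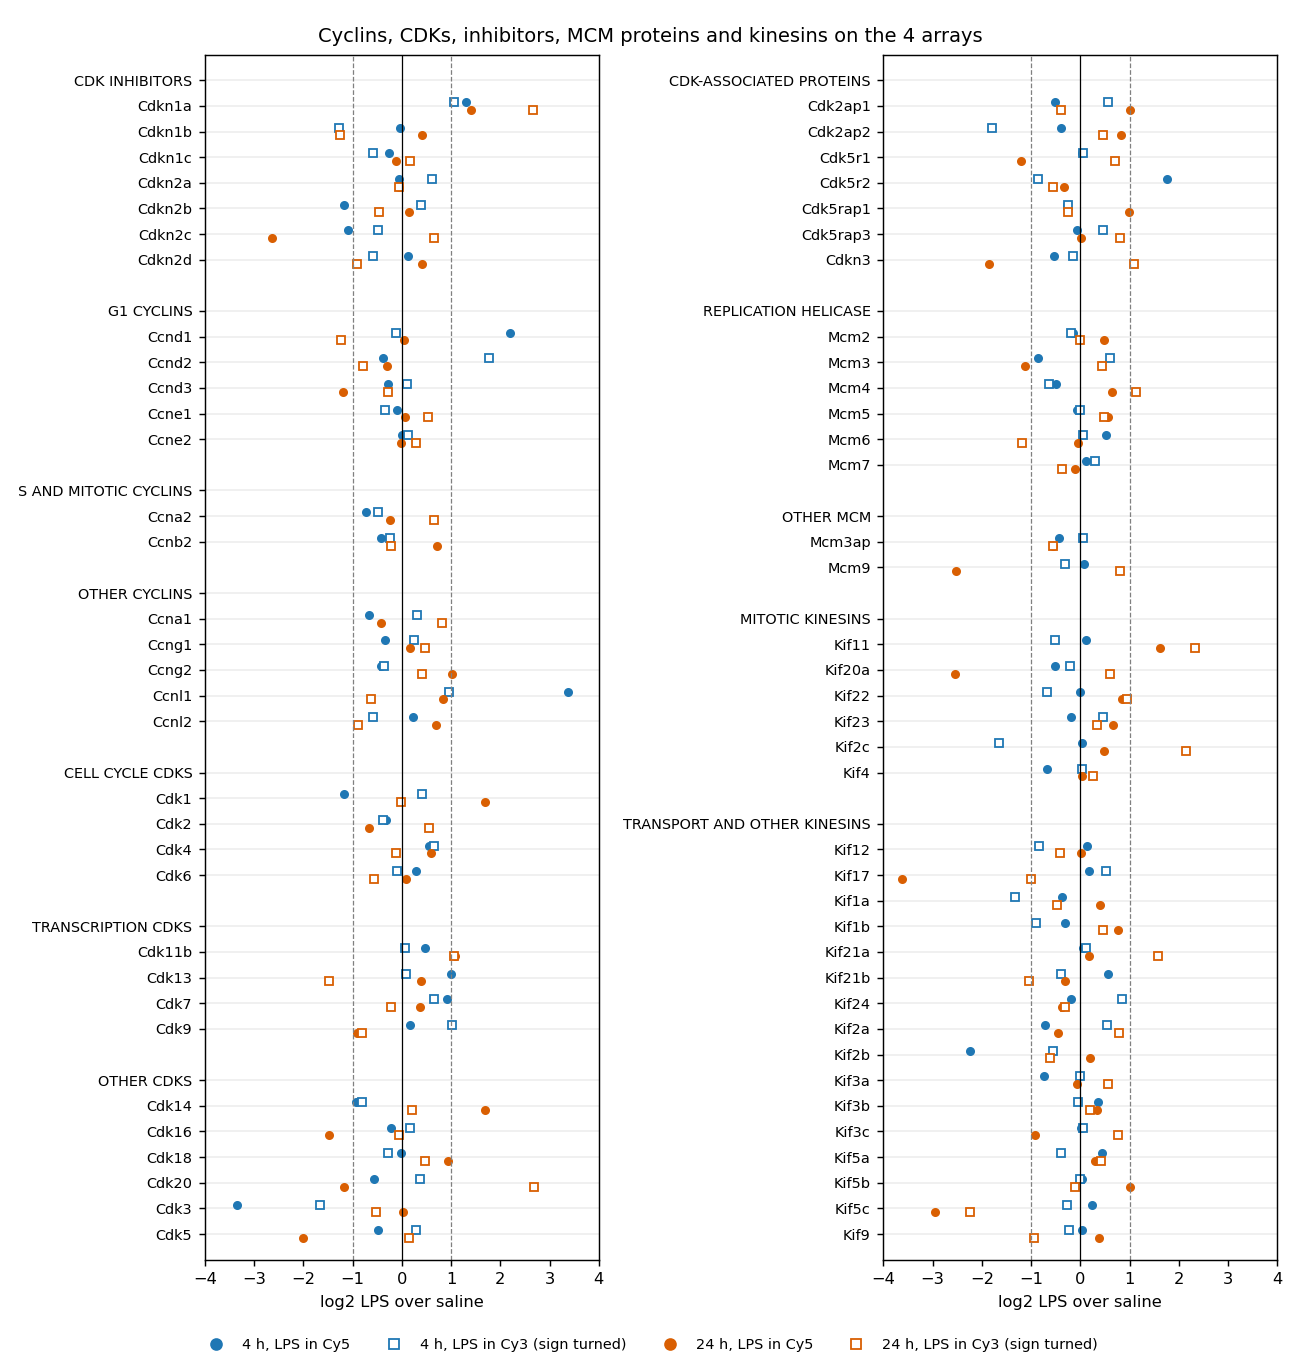
Each row is a gene and each point its log2 LPS over saline on 1 array, blue for 4 h and orange for 24 h, filled for LPS in Cy5 and open for LPS in Cy3 with the sign turned; dashed lines mark 2-fold. Cdkn1a is the only gene with all 4 points beyond the upper line, at 1.05 to 2.66, and most other genes have points on both sides of 0.

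Cdkn1a encodes p21, an inhibitor of CDK2 complexes that stops cells in G1. It stood at 1.30 and 1.05 at 4 h (1.18 ± 0.18) and at 1.41 and 2.66 at 24 h (2.04 ± 0.88). All 4 arrays were above 2-fold, and the values of the first oligonucleotide, given below, overlapped between the times. Over all genes, 54 of 11138 (0.485%) were called higher at both times. The array carries 2 oligonucleotides for Cdkn1a, and they disagreed. The first was at 2.35 and 2.46 at 4 h (2.41 ± 0.07) and at 2.24 and 2.83 at 24 h (2.54 ± 0.42), with its 8 spot values all between 1.23 and 3.25. The second was at 0.26 and -0.36 at 4 h (-0.05 ± 0.43), and its 24 h values of 0.58 and 2.49 contained 1 spot at 5.32 whose duplicate on the same array was at -0.34. The gene's mean therefore averages an oligonucleotide near 2.5 at both times with one near 0 at 4 h. Which of the transcripts of the gene each oligonucleotide reads was not tested.

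RefSeq lists 2 starts for Cdkn1a in assembly GRCm38.p6, and the 250 bases before each are shown, because the gene was the 1 member called at both times. Capitals mark a GC box (GGGCGG) or a match to the p53 decamer, each searched on both strands. The window of the upstream start lies on the plus strand at chr17:29090729-29090978 and that of the downstream start, also on the plus strand, at chr17:29093519-29093768.
Cdkn1a upstream start: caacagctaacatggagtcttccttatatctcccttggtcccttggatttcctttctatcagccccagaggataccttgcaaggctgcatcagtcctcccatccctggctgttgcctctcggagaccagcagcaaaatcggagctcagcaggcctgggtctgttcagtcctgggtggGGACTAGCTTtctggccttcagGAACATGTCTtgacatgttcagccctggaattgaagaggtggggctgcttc
Cdkn1a downstream start: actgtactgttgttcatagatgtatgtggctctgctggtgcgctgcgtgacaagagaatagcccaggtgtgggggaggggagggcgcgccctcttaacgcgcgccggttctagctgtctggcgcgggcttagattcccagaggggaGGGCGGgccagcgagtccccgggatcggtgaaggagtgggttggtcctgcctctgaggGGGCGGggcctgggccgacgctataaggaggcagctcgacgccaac
The upstream window held 2 matches to the p53 decamer, ending 63 and 41 bases before the start, and no GC box. The downstream window held 2 GC boxes, ending 98 and 40 bases before the start, and no p53 decamer. Of all 32851 windows of this length, 7.13% held a p53 decamer and 32.7% a GC box. These matches describe the sequence alone, since binding was not measured.

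The other 6 inhibitors were not called at either time. Cdkn1b (p27), the inhibitor of quiescent cells, was at -0.03 and -1.27 at 4 h and at 0.40 and -1.25 at 24 h, so that it was low on both arrays with LPS in Cy3 and near 0 or above on those with LPS in Cy5. The -1.25 came from 1 spot at -2.71, whose duplicate was at 0.22. Cdkn1c (p57) stayed between -0.58 and 0.17 on all arrays. Among the INK4 inhibitors of Cdk4 and Cdk6, Cdkn2c (p18) was at -1.10 and -0.48 at 4 h, and at -2.64 and 0.65 at 24 h (-0.99 ± 2.32), where the arrays took opposite signs. The Cdkn2c value of -0.48 held spots at 0.71 and -1.68. Cdkn2b (p15) was at -1.17 and 0.38 at 4 h, a value that holds 1 spot at -6.10 with its duplicate at 0.86, and at 0.15 and -0.46 at 24 h. Cdkn2a, whose locus encodes p16 and Arf, was within 0.06 of 0 on 3 arrays and at 0.62 on the second array of 4 h, with 2 of its 4 spot values of 24 h at a ratio of exactly 1. Cdkn2d (p19) was at 0.12 and -0.58 at 4 h and at 0.40 and -0.91 at 24 h. The 7 inhibitors thus did not move as a group: at each time 2 of 7 had a mean above 0. Among all 11138 genes 5372 had a mean above 0 at 4 h and 5395 at 24 h.

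Set against the drivers of division, the inhibitors were not higher as a list. Of 29 listed drivers, 23 were measured: the cyclins D1 to D3, E1, E2, A2 and B2, the kinases Cdk1, Cdk2, Cdk4 and Cdk6, Mcm2 to Mcm7 and 6 mitotic kinesins. Ccnb1, Kif14, Kif15, Kif18a, Kif18b and Kif20b had no spot under these symbols and were not analysed here. The median driver was at -0.17 at 4 h and 0.20 at 24 h, and the median inhibitor at -0.40 and -0.15. The difference of inhibitors minus drivers was -0.23 at 4 h and -0.35 at 24 h, and the first of these was -0.01 without spots at a ratio of exactly 1. On the single arrays it was 0.10 and -0.37 at 4 h and 0.09 and -0.35 at 24 h, so its sign was that of the dye orientation at both times. Without Cdkn1a the median inhibitor was at -0.41 at 4 h and -0.21 at 24 h. Among the drivers, 0 of 23 were called at 4 h, beside 2.25% of all genes higher and 0.997% lower. At 24 h 1 (4.35%), Kif11, was called higher, beside 3.48% of all genes. Driver means above 0 numbered 8 of 23 at 4 h and 14 of 23 at 24 h. Over all genes, 5372 of 11138 means were above 0 at 4 h and 5395 at 24 h.

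**Figure D2:**
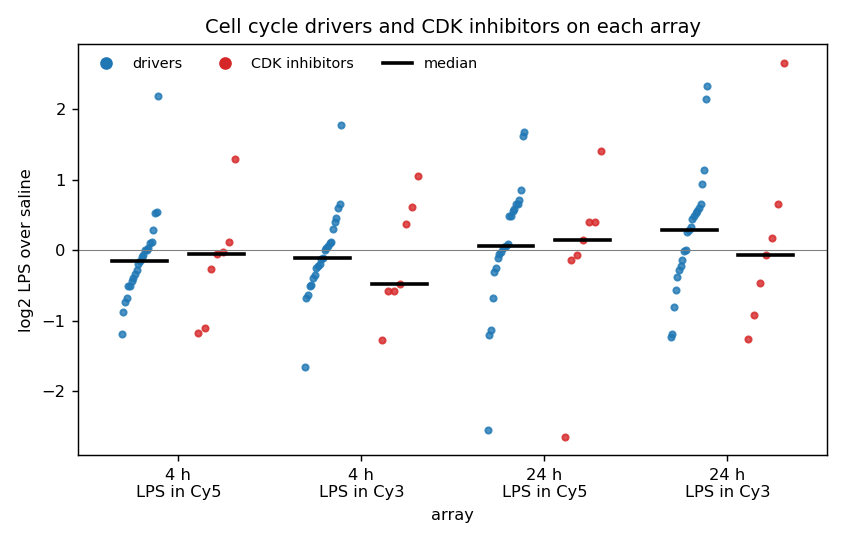
Points are the log2 LPS over saline of 23 drivers (blue) and 7 CDK inhibitors (red) on each array, spread sideways by rank, and bars are medians. The bars of the inhibitors lie above those of the drivers on both arrays with LPS in Cy5 (by 0.10 and 0.09) and below them on both with LPS in Cy3 (-0.37 and -0.35), and the highest red point of each array is Cdkn1a.

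The 5 G1 cyclins were not called at either time. Ccnd1, the cyclin most closely tied to growth factor signals, was at 2.19 and -0.12 at 4 h (1.04 ± 1.63). The high value came from 1 spot at 4.71, whose duplicate was at -0.33. At 24 h it was at 0.05 and -1.23. Ccnd2 was at -0.39 and 1.77 at 4 h and at -0.30 and -0.80 at 24 h, and Ccnd3 at -0.28 and 0.10 and then at -1.20 and -0.28. At 24 h the 3 D-type cyclins had means of -0.59 ± 0.90, -0.55 ± 0.35 and -0.74 ± 0.66, of which only the first had arrays of opposite sign. The E-type cyclins lay closer to 0. Ccne1 was at -0.10 and -0.35 at 4 h and 0.06 and 0.53 at 24 h, and Ccne2 stayed between -0.02 and 0.29.

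The cyclins of S phase and mitosis were not called either. Ccna2, which binds Cdk2 and Cdk1, was at -0.73 and -0.49 at 4 h (-0.61 ± 0.16) and at -0.25 and 0.65 at 24 h. Ccnb2, a partner of Cdk1, was at -0.43 and -0.25 at 4 h (-0.34 ± 0.13) and at 0.71 and -0.22 at 24 h. Both were thus below 0 on both arrays of 4 h, by less than 2-fold, and on either side of 0 at 24 h. Of the cyclins with other roles, Ccnl1, which binds Cdk11 and acts in splicing, had the highest mean of all members at 4 h, at 3.38 and 0.95 (2.16 ± 1.72). It missed the call because the second array lay just under 2-fold, and at 24 h it was at 0.83 and -0.62. The related Ccnl2, read by 3 oligonucleotides, was at 0.22 and -0.59 and then at 0.69 and -0.89. Ccng2, an atypical cyclin that rises in resting cells, was at -0.43 and -0.36 at 4 h and at 1.01 and 0.40 at 24 h. Ccng1, a p53 target, ranged from -0.34 to 0.46 over the arrays, and the germ cell cyclin Ccna1 from -0.66 to 0.81.

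Among the 4 CDKs of the division cycle, none was called. Cdk1, the mitotic kinase, was at -1.18 and 0.40 at 4 h and at 1.68 and -0.01 at 24 h (0.84 ± 1.20). On the first array of 24 h 1 spot was at 3.34 and its duplicate was listed at a ratio of exactly 1. Without spots at that ratio the 24 h mean of Cdk1 was 1.69, from single spots at 3.34 and 0.05. Cdk4 was above 0 on both arrays of 4 h, at 0.54 and 0.66 (0.60 ± 0.09), and at 0.59 and -0.13 at 24 h. Cdk2 was at -0.33 and -0.39 at 4 h (-0.36 ± 0.04) and at -0.67 and 0.56 at 24 h, and Cdk6 stayed between -0.56 and 0.29. Cdk4 thus lay above saline and Cdk2 below it on both arrays of 4 h, each by less than 2-fold.

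Of 8 listed CDKs of transcription 4 were measured. All 4 had means above 0 at 4 h, beside 5372 of all 11138 genes, and they went apart at 24 h. Cdk11b, which acts with cyclin L in splicing, was at 0.46 and 0.06 at 4 h and was called higher at 24 h at 1.07 and 1.06 (1.07 ± 0.00). This small SD did not extend to its spots, which ran from 0.42 to 1.80 at 24 h, and neither of its 2 oligonucleotides was 2-fold on both arrays by itself. Cdk9, the kinase of the elongation factor P-TEFb, was at 0.17 and 1.02 at 4 h and at -0.92 and -0.82 at 24 h (-0.87 ± 0.07). Its 24 h value came from 1 of the duplicate spots, at -1.57 and -1.82, while the other was at -0.26 and 0.18. Cdk7, of the general factor TFIIH, was at 0.91 and 0.66 at 4 h (0.78 ± 0.18) and at 0.37 and -0.23 at 24 h. Cdk13, a partner of cyclin K, was at 1.00 and 0.08 and then at 0.38 and -1.49. Its duplicate spots disagreed on the second arrays, at 0.73 and -0.58 at 4 h and at -0.06 and -2.92 at 24 h. The spot at -0.06 was listed at a ratio of exactly 1.

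The remaining CDKs held the 1 member called lower at 4 h. Cdk3, whose gene carries a premature stop codon in many laboratory strains, was at -3.35 and -1.67 at 4 h (-2.51 ± 1.18) and at 0.02 and -0.52 at 24 h. Of its 4 spot values at 4 h, 3 were between -3.58 and -2.95 and 1 was at -0.39. At 24 h 3 of its 4 spot values were listed at a ratio of exactly 1, which leaves 1 measured spot, at -0.97. Cdk14, a partner of cyclin Y, was low on both arrays of 4 h at -0.93 and -0.82 (-0.88 ± 0.08) and at 1.68 and 0.21 at 24 h. At 4 h 1 spot carried this, at -1.57 and -1.91, with its duplicate at -0.30 and 0.28, and the 1.68 came from a spot at 3.26 with its duplicate at 0.11. Cdk18 was at -0.01 and -0.28 and then at 0.93 and 0.46, and Cdk16 at -0.23 and 0.17 and then at -1.48 and -0.05. The Cdk16 spots parted on both arrays of 24 h, at 0.52 and -3.47 and at 1.17 and -1.28. Cdk5, best known from neurons, was at -0.49 and 0.29 at 4 h and at -2.00 and 0.14 at 24 h. Cdk20 was 2-fold in opposite directions at 24 h, at -1.18 and 2.69, after -0.56 and 0.37 at 4 h.

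Proteins named for their link to CDKs gave no call in 7 measured genes. Cdk2ap2 was at -0.39 and -1.80 at 4 h (-1.09 ± 1.00) and at 0.82 and 0.47 at 24 h (0.65 ± 0.25). Its relative Cdk2ap1 went from -0.51 and 0.57 to 1.01 and -0.39, with the sign of the arrays turning between the times. The neuronal activators of Cdk5 did not stand out: Cdk5r1 was at 0.03 and 0.05 and then at -1.21 and 0.70, and Cdk5r2 at 1.75 and -0.87 and then at -0.34 and -0.56. Cdkn3, a phosphatase that acts on Cdk2, was at -0.53 and -0.14 at 4 h and in opposite directions at 24 h, at -1.86 and 1.08. Cdk5rap1, an enzyme of transfer RNA modification, and Cdk5rap3, of the ufmylation pathway, were within -0.28 and 0.99 on all arrays.

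The 6 subunits of the replication helicase were measured in full, and 0 of 6 were called at 4 h or at 24 h. Of all genes, 2.25% were higher and 0.997% lower at 4 h, and 3.48% and 3.52% at 24 h. Mcm4 had the widest move of the 6 between the times. It was at -0.50 and -0.63 at 4 h (-0.56 ± 0.09) and at 0.65 and 1.14 at 24 h (0.90 ± 0.35), and its spots lay close together, from -0.76 to -0.48 at 4 h and from 0.63 to 1.26 at 24 h. Mcm5 was at -0.06 and 0.00 and then at 0.56 and 0.49 (0.53 ± 0.05), but its duplicate spots had opposite signs on both arrays of 24 h, at -0.12 and 1.24 and at 1.32 and -0.34. Mcm2 was at -0.15 and -0.19 and then at 0.48 and 0.00, so these 3 subunits had 24 h means above their 4 h means, with spots that lay together for Mcm4 and not for Mcm5. The other subunits did not share this. Mcm7 was at 0.12 and 0.30 and then at -0.11 and -0.38, and Mcm6 at 0.53 and 0.06 and then at -0.05 and -1.19. The last value came from 1 Mcm6 spot at -2.32, whose duplicate was listed at a ratio of exactly 1. Mcm3 had arrays of opposite sign at both times, at -0.87 and 0.60 and at -1.13 and 0.44. As a list the helicase had a median of -0.08 at 4 h and 0.00 at 24 h, beside -0.02 for all genes at both. Of 2 members that share only the family name, Mcm9, a helicase of homologous recombination, was at 0.08 and -0.32 and then at -2.53 and 0.81, and Mcm3ap, of messenger RNA export, stayed between -0.56 and 0.05. The Mcm9 value of -2.53 held spots at -4.93 and -0.14.

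Mitotic kinesins included the 1 driver that was called. Kif11 (Eg5), the motor that pushes spindle poles apart, was at 0.11 and -0.51 at 4 h (-0.20 ± 0.44) and at 1.62 and 2.33 at 24 h (1.98 ± 0.51). Both arrays of 24 h lay above both of 4 h. Its 4 spot values at 24 h were 2.01, 1.22, 1.21 and 3.46, so Kif11 was the only member with every spot at least 2-fold on the same side at either time. By that stricter rule 1.87% of all genes were higher and 1.78% lower at 24 h, and 1.25% higher and 0.323% lower at 4 h. Kif22, a motor on chromosome arms, was at 0.00 and -0.68 at 4 h and at 0.85 and 0.94 at 24 h (0.90 ± 0.06), just under 2-fold on both arrays. Kif2c (MCAK), which takes microtubules apart at centromeres, was at 0.03 and -1.65 and then at 0.49 and 2.14. Its outer values rested on 1 of the duplicate spots, at -3.32 and 4.98, while the other was at 0.03 and -0.70 on the same arrays.

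The other mitotic kinesins were not called. Kif23 (MKLP1), of the central spindle, was at -0.19 and 0.46 at 4 h and at 0.66 and 0.33 at 24 h, and the chromosome motor Kif4 at -0.67 and 0.03 and at 0.03 and 0.26. The duplicate spots of Kif23 disagreed at 24 h, at -0.72 and 2.03 on the first array and at -0.05 and 0.70 on the second. Kif20a (MKLP2), needed for cytokinesis, was at -0.51 and -0.22 at 4 h and at -2.55 and 0.60 at 24 h, where 1 spot was at -4.32 and its duplicate at -0.78. The 6 measured mitotic kinesins had a median of -0.33 at 4 h and 0.69 at 24 h, beside -0.02 for all genes at both times. Of the 6, 1 (16.7%) was called higher at 24 h, beside 3.48% of all genes.

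The 250 bases before the RefSeq start are shown for Kif11, the driver that was called, and for Kif22, which was close to the call. Capitals mark GC boxes, with the letters given above, and CCAAT boxes, which are searched by the letters of their name. They also mark the cell cycle genes homology region, or CHR, with the letters TTTGAA, an element known from promoters of genes of G2 and mitosis. Both strands were searched, so the reverse complements of these letters are in capitals as well. The Kif11 window is on the plus strand at chr19:37376132-37376381 and the Kif22 window on the minus strand at chr7:127042421-127042670, both in GRCm38.p6.
Kif11: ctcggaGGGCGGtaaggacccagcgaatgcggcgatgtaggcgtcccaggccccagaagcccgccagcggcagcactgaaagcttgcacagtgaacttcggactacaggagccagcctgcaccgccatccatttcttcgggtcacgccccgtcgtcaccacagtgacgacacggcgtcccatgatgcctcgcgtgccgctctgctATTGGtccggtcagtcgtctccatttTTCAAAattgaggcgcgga
Kif22: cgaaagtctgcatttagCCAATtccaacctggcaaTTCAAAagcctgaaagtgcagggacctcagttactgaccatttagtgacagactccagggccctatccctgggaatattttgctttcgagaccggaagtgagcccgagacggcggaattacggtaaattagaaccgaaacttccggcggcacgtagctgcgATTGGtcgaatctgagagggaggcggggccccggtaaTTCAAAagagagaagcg
Kif11 had a CCAAT box ending 40 bases and a CHR ending 13 bases before the start, and Kif22 had them 49 and 11 bases before it, with a further copy of each far upstream. The motifs did not overlap one another in these windows. Among the drivers, 14 of 19 windows held a CCAAT box and 6 of 19 a CHR, against 33.8% and 16.0% of all 32851 windows. The 6 windows with a CHR belonged to Ccnb2, Cdk1, Kif11, Kif22, Kif2c and Mcm2, of which 1 gene was called. The windows cover 57 of the 70 members.

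**Figure D3:**
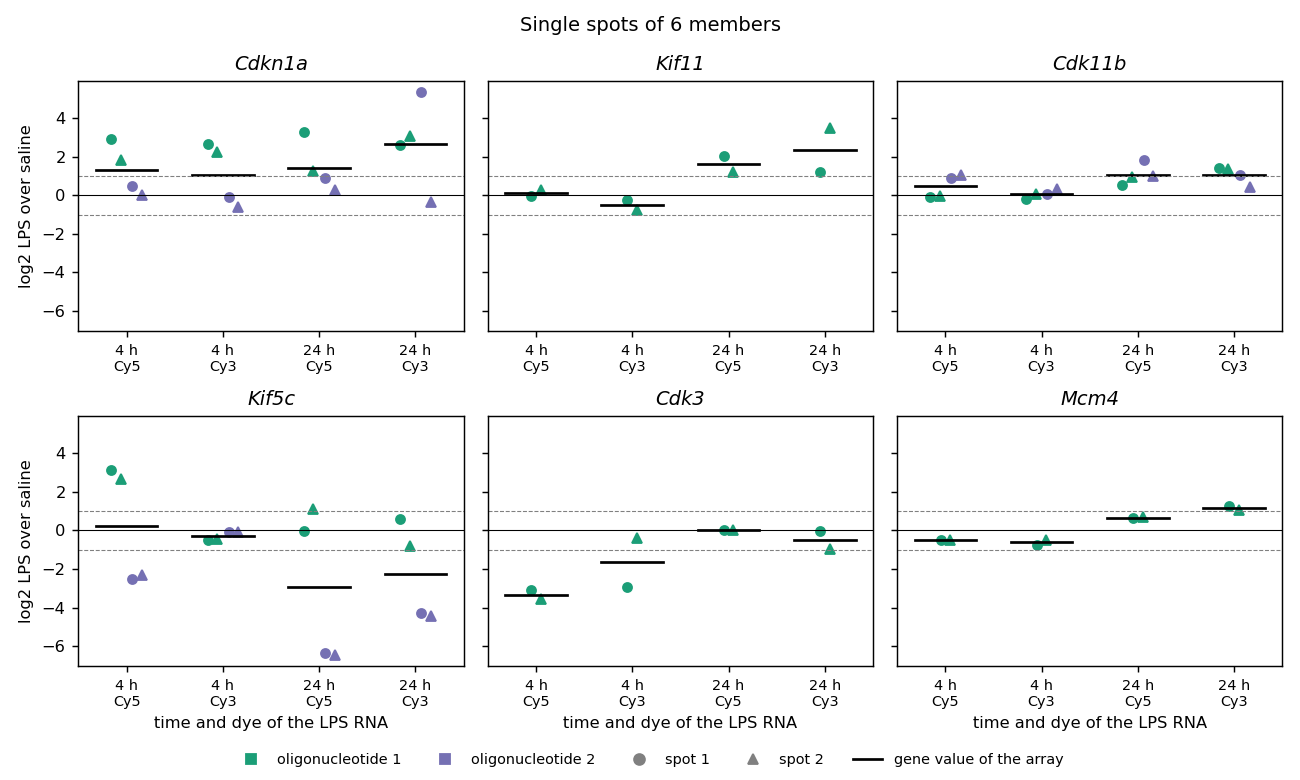
Single spots of 6 members, with log2 LPS over saline on the y axis and the 4 arrays, by time and dye of the LPS RNA, on the x axis; colours are oligonucleotides, shapes duplicate spots and bars the gene value. The first Cdkn1a oligonucleotide is above 2-fold on all arrays and the second is not, the 2 Kif5c oligonucleotides part widely at 24 h, and the spots of Mcm4 lie together.

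Kinesins of transport and other kinesins held the 1 member called lower at 24 h. Kif5c, a heavy chain of conventional kinesin best known from neurons, was at 0.24 and -0.28 at 4 h (-0.02 ± 0.37) and at -2.95 and -2.24 at 24 h (-2.59 ± 0.50). This call rests on 1 of its 2 oligonucleotides. The second was at -6.41 and -4.36 at 24 h (-5.38 ± 1.45), with its spots between -6.46 and -4.26, and the first was at 0.51 and -0.12 (0.19 ± 0.45). At 4 h the arrays differed as well, with the first oligonucleotide at 2.89 and -0.48 and the second at -2.42 and -0.09. Of the other heavy chains, Kif5b, the form found in most tissues, was at 0.03 and 0.00 at 4 h and at 1.01 and -0.10 at 24 h, and Kif5a at 0.44 and -0.39 and at 0.30 and 0.41. Both Kif5b spots on the second array of 4 h were at a ratio of exactly 1. The 1.01 came from 1 Kif5b spot at 2.07 with its duplicate at -0.05. Kif17, a motor of dendrites and cilia, was at 0.17 and 0.53 at 4 h. Its duplicate spots disagreed there, at 1.91 and -1.58 on the first array and at 1.12 and -0.06 on the second. At 24 h its mean was -2.31 ± 1.85, from -3.62 on the first array and a value on the second that fell just short of 2-fold, so it was not called.

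The remaining 12 kinesins of this kind were not called. Kif2b, a microtubule depolymerase, was at -2.25 and -0.56 at 4 h (-1.41 ± 1.19), where 1 spot at -4.51 had a duplicate at a ratio of exactly 1. Kif1b, a carrier of mitochondria and vesicles, was at -0.31 and -0.90 at 4 h and at 0.76 and 0.45 at 24 h, and the related Kif1a at -0.38 and -1.33 and then at 0.39 and -0.48. Kif21a was at 0.05 and 0.12 and then at 0.18 and 1.58, and Kif21b at 0.57 and -0.39 and then at -0.32 and -1.05. The Kif21a value of 1.58 held spots at 3.90 and -0.74, and the Kif1a value of -1.33 spots at -3.91 and 1.24. Subunits of the heterotrimeric kinesin that serves cilia stayed under 2-fold, with Kif3a between -0.74 and 0.56 and Kif3b between -0.05 and 0.36. Both Kif3a spots on the second array of 4 h were at a ratio of exactly 1. Kif3c was at 0.02 and 0.05 and then at -0.93 and 0.76. Kif2a, Kif9, Kif12 and Kif24 had means between -0.36 and 0.32 at both times. The 16 transport and other kinesins had a median of 0.00 at 4 h and -0.07 at 24 h.

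Set against each other, the times differed for about as large a share of members as of all genes. A gene counted as separated if its means were 1 log2 unit or more apart and the arrays of the times did not overlap. This held for 13 of 70 members (18.6%) and 19.8% of all genes. Of these, 9 members (12.9%) were higher at 24 h, beside 9.43% of all genes, and 4 (5.71%) were lower, beside 10.3%. With the signs of the LPS-in-Cy3 arrays not turned, 4 members were higher and 5 lower. Kif11 was 2.17 higher at 24 h, Kif2c 2.13, Mcm4 1.46 and Kif22 1.24, so 4 of 23 drivers were among the 9, beside 9.43% of all genes. The Kif2c difference rests on 1 of its duplicate spots, at -3.32 and 4.98 on the second arrays, where the other was at 0.03 and -0.70. The other members higher at 24 h were Cdk3 at 2.26, Cdk14 at 1.82, Cdk2ap2 at 1.74, Kif1b at 1.21 and Ccng2 at 1.10. Of these, the 24 h value of Cdk3 rests on spots listed at a ratio of exactly 1, and without such spots it has no 24 h mean. On the first array of 24 h Cdk2ap2 had 1 spot at 1.63 and its duplicate at a ratio of exactly 1. On the second arrays the duplicates of Kif1b were at -0.01 and -1.78 at 4 h and at -0.50 and 1.39 at 24 h. Those of Ccng2 were at 0.25 and -0.96 and then at 1.12 and -0.31. Lower at 24 h were Kif17 at -2.66, Kif5c at -2.57, Ccnl1 at -2.05 and Cdk9 at -1.47. None of the 23 drivers and 7 inhibitors was among these 4, beside 10.3% of all genes. Cdkn1a was 0.86 higher at 24 h and did not reach 1 unit, and its first oligonucleotide had means of 2.41 at 4 h and 2.54 at 24 h. Below 0 on both arrays of 4 h and above 0 on both of 24 h were 9 members, beside 6.46% of all genes, and 4 members went the other way, beside 5.84%.

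**Figure D4:**
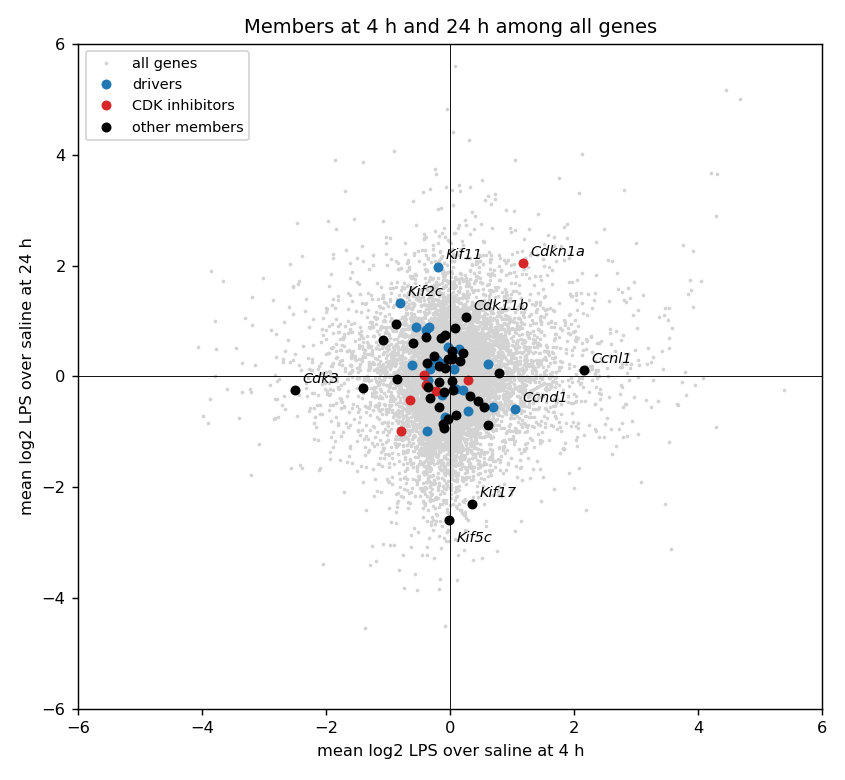
Each point is a gene, with its mean log2 LPS over saline at 4 h on the x axis and at 24 h on the y axis; grey points are all 11138 genes, blue points drivers, red points CDK inhibitors and black points other members. Cdkn1a lies up and to the right at 1.18 and 2.04, Kif11 is high on the y axis alone at 1.98, and most members lie within the cloud around 0.

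Other genes of the cycle were counted in lists kept apart from the members. Of 38 measured replication factors, 0 were called at 4 h. At 24 h 2 (5.26%) were higher and 2 (5.26%) lower, beside 3.48% and 3.52% of all genes. The clamp loader subunit Rfc1 at 1.16 ± 0.19 and Rpa3, of the single-strand binding complex, at 1.22 ± 0.16 were higher, and Gins1, of the helicase complex, at -2.25 ± 1.28 and the polymerase subunit Pole2 at -1.55 ± 0.45 were lower. Of 33 mitotic genes, the centrosomal kinase Nek2 (3.03% of the list, beside 2.25% of all genes) was higher at 4 h at 1.12 ± 0.00, and 0 were called at 24 h. Of 14 genes that control the step from G1 to S phase, Myc at 2.50 ± 1.03 and the antiproliferative Btg1 at 1.46 ± 0.02 were higher at 4 h, and Btg2, which also restrains division, was lower at 24 h at -1.28 ± 0.24. At 24 h Myc was at -2.78 and 1.08, in opposite directions. These were 14.3% of the list higher at 4 h, beside 2.25% of all genes, and 7.14% lower at 24 h, beside 3.52%. Btg1 had every spot above 2-fold at 4 h, between 1.23 and 1.71.

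The p53 pathway list gave calls in both directions. Of 17 measured genes, the stress protein Gadd45g was higher at 4 h at 1.07 ± 0.07 and at 24 h at 1.81 ± 0.75, and Trp53inp1 was lower at 24 h at -2.57 ± 0.37. A single gene is 5.88% of this list, beside 2.25% of all genes higher at 4 h, 3.48% higher at 24 h and 3.52% lower at 24 h. Bbc3 and Sesn2 were 2-fold in opposite directions at 24 h. The medians of this list were 0.08 at 4 h and 0.15 at 24 h. Trp53 and Bax had no spot under these symbols and were not analysed here.

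On the single arrays 8 to 20 of the 70 members were at least 2-fold from 0. In order of the arrays these were 12.9%, 11.4%, 28.6% and 20.0% of members, beside 20.8%, 12.7%, 30.6% and 29.1% of all genes, so the share of members was the smaller one on each array. Duplicate spots of the 79 member oligonucleotides correlated at 0.27 to 0.53, and those of all oligonucleotides at 0.25 to 0.40. The arrays of a time correlated at 0.25 at 4 h and 0.13 at 24 h over the 70 members and at 0.12 over all genes at both times. Endothelial markers were measured for 14 of 15 genes and, as ratios, say nothing of their level. They stood at a median of 0.00 at 4 h and 0.42 at 24 h, with Kdr, Eng, Cd36 and Gpihbp1 called higher at 24 h, between 2.21 and 4.06. These 4 were 28.6% of the measured markers, beside 3.48% of all genes. At 4 h Cldn5 (7.14%, beside 2.25% of all genes) was called higher at 1.29. Kdr and Eng (14.3%, beside 0.997%) were called lower at 4 h, at -1.89 and -1.87. Of 10 neutrophil markers, S100a8 and S100a9 (20.0%, beside 3.48% of all genes) were called higher at 24 h, at 2.59 and 1.55. Ngp, 1 of the 10, was called lower at 24 h at -1.62, beside 3.52% of all genes, and the list's median was -0.10. Of 6 measured erythrocyte markers Klf1 (16.7%) was higher and Car1 (16.7%) lower at 24 h, beside 3.48% and 3.52% of all genes. None of the 9 monocyte and macrophage, 9 lymphocyte, 9 fibroblast or 8 smooth muscle and pericyte markers was called at either time. Of 12 cardiomyocyte markers Ryr2 (8.33%) was lower at 24 h, beside 3.52% of all genes. The part of these shifts in the values of Cdkn1a and Kif11 was not tested.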

How the data were processed

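Arrays with 2 colours of long oligonucleotides were used, and per the labels amplified RNA of LPS- and saline-injected mice was labelled with Cy3 and Cy5. The deposited table holds 1 log2 ratio per spot for 32448 spots on 4 arrays. The sources used here give no background correction, dye normalization, spot filter or intensity, so weak and strong spots could not be told apart. Precision is limited by having 4 arrays. A ratio of exactly 1 stood at 10.2% to 13.4% of spots, depending on the array. The platform annotation gave 1 symbol for 24344 spots (75.0%), several for 98, which were left out, and none for 8006.

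The sign of arrays with LPS in Cy3 was turned. Gene values are means over oligonucleotides of the means of adjacent duplicate spots, less the array's median over 11138 genes. Files name no genome build, so coordinates are given only for RefSeq promoter windows. Calls need 2-fold on both arrays. Members, lists, the direction of the table and the alternatives were chosen with earlier results of these data known. Genes were named by rule where a member was called, was separated with a mean of at least 1 unit, or was a canonical cyclin, CDK, inhibitor, helicase subunit or mitotic kinesin, and where a gene of another list was called. The remaining members and single examples were added after their values were seen. Scripts ran in Python 3.11.15 with pandas 2.3.3, and limma 3.58.1 in R 4.3.3 served as an alternative. They were tested on simulated data.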

Additional observations from a re-analysis of the deposited data

Results flagged for a closer look

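For 13 members every array of 4 h lay on one side of 0 and every array of 24 h on the other, a difference between the times that was not tested. Below 0 at 4 h and above it at 24 h were 9 members (12.9%), where 6.46% of all genes did so. Their 24 h mean lay above their 4 h mean by 1.82 for Cdk14, 1.74 for Cdk2ap2, 1.46 for Mcm4, 1.24 for Kif22, 1.21 for Kif1b, 1.10 for Ccng2, 0.84 for Cdk18, 0.52 for Ccne1 and 0.41 for Mcm2. Above 0 at 4 h and below it at 24 h were 4 members (5.71%), where 5.84% of all genes did so. The 24 h mean minus the 4 h mean was -2.66 for Kif17, -1.47 for Cdk9, -0.91 for Mcm6 and -0.46 for Mcm7. The helicase subunits Mcm2 and Mcm4 and their partners Mcm6 and Mcm7 thus stood on opposite sides in this respect. Several of these values are within 0.1 of 0 on 1 array, among them Kif22 and Cdk18 at 4 h and Mcm2 and Mcm6 at 24 h. The contrast among helicase subunits therefore rests in part on values near 0. On the second array of 24 h the Mcm6 value came from 1 spot at -2.32, whose duplicate was listed at a ratio of exactly 1. The duplicate spots of Kif17 had opposite signs on both arrays of 4 h.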

How the results depend on the processing

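With 1 replicate a time, these limits come from settings and not from animals. Cdkn1a stayed called higher at both times, and Kif5c lower at 24 h, without centring, without spots at a ratio of exactly 1, with medians over spots, and with scaled or quantile normalized arrays. Kif11 stayed called in these too, while Cdk11b was lost with medians and with both normalizations. Scaling and quantile normalization each gave 2 members higher at 4 h (Ccnl1 joined) and 2 lower (Cdk14 joined). Without spots at a ratio of exactly 1, 2 were lower at 24 h (Kif17 joined). At 1.5-fold, 3 were higher and 2 lower at 4 h, 5 higher and 3 lower at 24 h, and 23 were separated between the times. With every spot required, 0 were higher and 0 lower at 4 h, and 1 higher (Kif11) and 0 lower at 24 h. Counting members with at least 1 oligonucleotide called, chosen after seeing the data, lost Cdk11b alone.

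If the table was already turned alike, 0 members were higher and 0 lower at 4 h, 0 higher and 2 lower at 24 h, 4 members were separated as higher and 5 as lower at 24 h than at 4 h, the 4 h median was -0.02, inhibitors minus drivers came to 0.18 at 4 h and 0.04 at 24 h, and at 24 h Cdkn1a stood at -0.63 and Kif11 at -0.36, both reversed. On 1 array alone, 3 to 4 members were higher and 5 lower at 4 h, and 8 higher and 6 to 12 lower at 24 h. The median of members then ran from -0.09 to -0.03 at 4 h and from 0.07 to 0.16 at 24 h, and inhibitors minus drivers from -0.37 to 0.10 and from -0.35 to 0.09. Over all genes, 251 were higher and 111 lower at 4 h and 388 and 392 at 24 h. Scaled arrays gave 365 and 226, then 234 and 236, and quantile normalization 327 and 235, then 273 and 252. With signs not turned there were 87 and 71, then 190 and 221. With the arrays as separate samples, limma called 0 genes after Benjamini-Hochberg adjustment (smallest adjusted p 0.884 at 4 h and 0.767 at 24 h), 0 members in either direction at either time. At an unadjusted p under 0.05 there were 2 of 70 members at 4 h (Cdk3 and Cdkn1a) and 4 of 70 at 24 h (Cdkn1a, Kif11, Kif17 and Kif5c). Over all genes there were 530 (4.76%) and 717 (6.44%) of 11138. Of 586 values of single members under the other alternatives, 495 stayed within 1 SD of the arrays, 89 moved further and 2 reversed. Values from 1 array alone are left out of this count, since with 2 arrays they cannot pass 1 SD.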

Other observations

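Of the 8 members with more than 1 oligonucleotide, 5 had oligonucleotides whose means lay over 1 log2 unit apart at 4 h or at 24 h. The gap was 5.57 for Kif5c at 24 h, 2.46 for Kif5c and 2.46 for Cdkn1a at 4 h, 2.21 for Cdkn2b at 4 h, 1.37 for Kif5a at 24 h and 1.06 for Ccnl2 at 24 h. The spots of the Cdkn1a oligonucleotide that stood apart lay between 1.23 and 3.25 on all arrays, with duplicates as far apart as 3.25 and 1.23 on the first array of 24 h and 2.90 and 1.81 on the first of 4 h. Those of the Kif5c oligonucleotide lay between -6.46 and -4.26 at 24 h. For Cdkn2b the gap held 2 single spots, 1 of each oligonucleotide, at -6.10 and 2.27. The duplicate of the first was at 0.86, and that of the second was listed at a ratio of exactly 1. The other 62 members had 1 oligonucleotide, and for these no such comparison could be made.

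Duplicate spots of a member oligonucleotide lay over 1 log2 unit apart in 20.3% and 21.5% of cases on the arrays of 4 h and in 34.2% and 29.1% on those of 24 h, beside 27.1%, 13.7%, 29.7% and 29.3% over all oligonucleotides. The canonical driver Ccnd1 is an example, with a single spot at 4.71 and its duplicate at -0.33. For the kinase Cdk1 a spot at 3.34 had its duplicate listed at a ratio of exactly 1.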
